A study of Mus musculus with 12 samples.

Results

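Type I interferon-stimulated genes are the antiviral genes that cells switch on through the receptor for interferon-alpha and interferon-beta. The set described here held 39 such genes, listed by symbol, without the interferon regulatory factors and without the GTPases of the GBP and IRG families. Of these, 37 were measured by a probe set that carries 1 gene symbol, among 19752 genes measured in all. Isg15, which encodes a ubiquitin-like modifier, was listed too, but its probe set carries several symbols and is not used here; Ifi44 had no value either. RNA came from splenic CD4+ T cells of male C57BL/6 mice aged 6 weeks, enriched by negative selection and stimulated for 48 h with beads against CD3 and CD28. All 12 samples share this activation. After it, 5 samples were cultured with IL-12 at 100 U/ml for 2 h and 4 with the same dose for 8 h, 2 were kept without IL-12 for 2 h, and the label of the last sample reads baseline, without a time in culture. The cells carry no engineered allele per the labels, and an untreated culture of 8 h is not among the samples.

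Interferon-alpha and interferon-beta bind a receptor made of the IFNAR1 and IFNAR2 chains, and its kinases JAK1 and TYK2 activate STAT2. With IRF9 it takes part in a complex that binds interferon-stimulated response elements in promoters, and the genes it switches on encode sensors of foreign RNA, enzymes that degrade or modify it, and feedback inhibitors such as USP18. Several of the same genes also answer to interferon-gamma, which activated T cells make in response to IL-12 through STAT4.

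Promoters were searched for the core of the response element (GAAA, then any 2 bases, then GAAA) on both strands and with overlapping matches counted, in the 250 bases before the gene's start (RefSeq, build GRCm38.p6). Entries existed for 27 of the 37 measured genes. The core was in 7 of these 27 (25.9%), namely Bst2, Ifit1, Ifit3, Oas3, Rsad2, Stat2 and Trim30a, against 936 of 27025 genes in the table (3.46%). A match describes letters, not a site in use, and a window without a match says nothing of the factor. The promoters printed here were chosen after the values were seen, to show genes with different courses between 2 and 8 h of IL-12: Ifit1, Ifit3 and Rsad2, which fell, Trim30a, whose rise passed narrowly, and Ifih1, which fell and has no match in this window. A gene with several listed starts counts if any has the core; Trim30a has 2, and its other start has none. They are written 5′ to 3′ on the gene's strand, and capitals mark the core, read on either strand. The matches lie 104 to 95 and 85 to 76 bases before the start in Ifit1, 156 to 147 and 122 to 113 in Ifit3, 120 to 111 in Rsad2 and 36 to 27 in Trim30a.
Ifit1, chr19:34640639-34640888, plus strand: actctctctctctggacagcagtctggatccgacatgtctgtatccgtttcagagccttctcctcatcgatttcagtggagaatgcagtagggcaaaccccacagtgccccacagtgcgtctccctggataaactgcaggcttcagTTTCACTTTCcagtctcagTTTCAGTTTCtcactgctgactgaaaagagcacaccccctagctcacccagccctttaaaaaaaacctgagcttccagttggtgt
Ifit3, chr19:34583279-34583528, plus strand: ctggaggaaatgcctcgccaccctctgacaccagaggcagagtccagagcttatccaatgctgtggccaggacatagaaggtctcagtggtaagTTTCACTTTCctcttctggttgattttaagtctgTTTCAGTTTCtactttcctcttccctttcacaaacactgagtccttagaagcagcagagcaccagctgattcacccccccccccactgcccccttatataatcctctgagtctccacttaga
Rsad2, chr12:26456453-26456702, minus strand: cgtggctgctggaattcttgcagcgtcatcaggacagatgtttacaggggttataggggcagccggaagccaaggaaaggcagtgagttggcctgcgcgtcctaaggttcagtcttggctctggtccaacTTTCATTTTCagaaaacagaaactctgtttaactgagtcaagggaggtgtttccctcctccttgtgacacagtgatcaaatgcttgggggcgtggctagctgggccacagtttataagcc
Trim30a, chr7:104465194-104465443, minus strand: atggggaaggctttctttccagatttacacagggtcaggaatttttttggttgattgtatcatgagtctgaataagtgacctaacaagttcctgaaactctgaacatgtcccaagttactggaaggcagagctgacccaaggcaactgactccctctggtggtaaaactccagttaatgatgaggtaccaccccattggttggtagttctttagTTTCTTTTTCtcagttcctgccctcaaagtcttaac
Ifih1, chr2:62646256-62646505, minus strand: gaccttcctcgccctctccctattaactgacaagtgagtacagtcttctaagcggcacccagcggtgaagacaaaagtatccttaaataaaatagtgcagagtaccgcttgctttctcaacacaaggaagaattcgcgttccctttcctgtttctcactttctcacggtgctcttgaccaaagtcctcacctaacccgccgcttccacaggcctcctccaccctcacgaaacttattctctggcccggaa

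Values are log2 intensities, and each gene's values are compared only with its own. The titles give the samples numbers from 2 to 8, whose meaning the labels leave unstated. Arrays numbered 2 to 4 (3 of IL-12 2 h, 2 of IL-12 8 h) and arrays numbered 5 to 8 (2 of IL-12 2 h, 2 of IL-12 8 h, both untreated and the baseline) stood apart across all genes, so the model held a term for the number run. By its title the baseline array has number 5, but its median correlation across genes was 0.9926 with the other run (2 to 4) and 0.9893 with its own (5 to 8). Its comparisons were therefore fitted in both placements. T cell markers were above the array median in 10 of 10 measured genes on all arrays. Whether replicates are separate animals or cultures is not in the labels; p-values then measure only a spread between arrays that may be technical, and precision is limited by how many arrays there are.

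The mean log2 intensity of the 37 genes was 8.58 on both untreated arrays. It was 8.70 to 8.71 on IL-12 2 h arrays 5 and 6 and 8.68 to 8.71 on IL-12 8 h arrays 5 and 6. On IL-12 2 h arrays 2 to 4 it lay between 9.18 and 9.26, on IL-12 8 h arrays 2 and 3 between 9.02 and 9.04, and on the baseline array it was 8.97. The set was thus highest in the arrays numbered 2 to 4, lowest in the untreated arrays, and on the baseline array it lay between the IL-12 arrays of both number runs. Of the 37 genes, 30 were brighter than the array median on all arrays, and Mx1 and Mx2, genes of the Mx GTPase family, were below it on all of them.

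**Figure D1:**
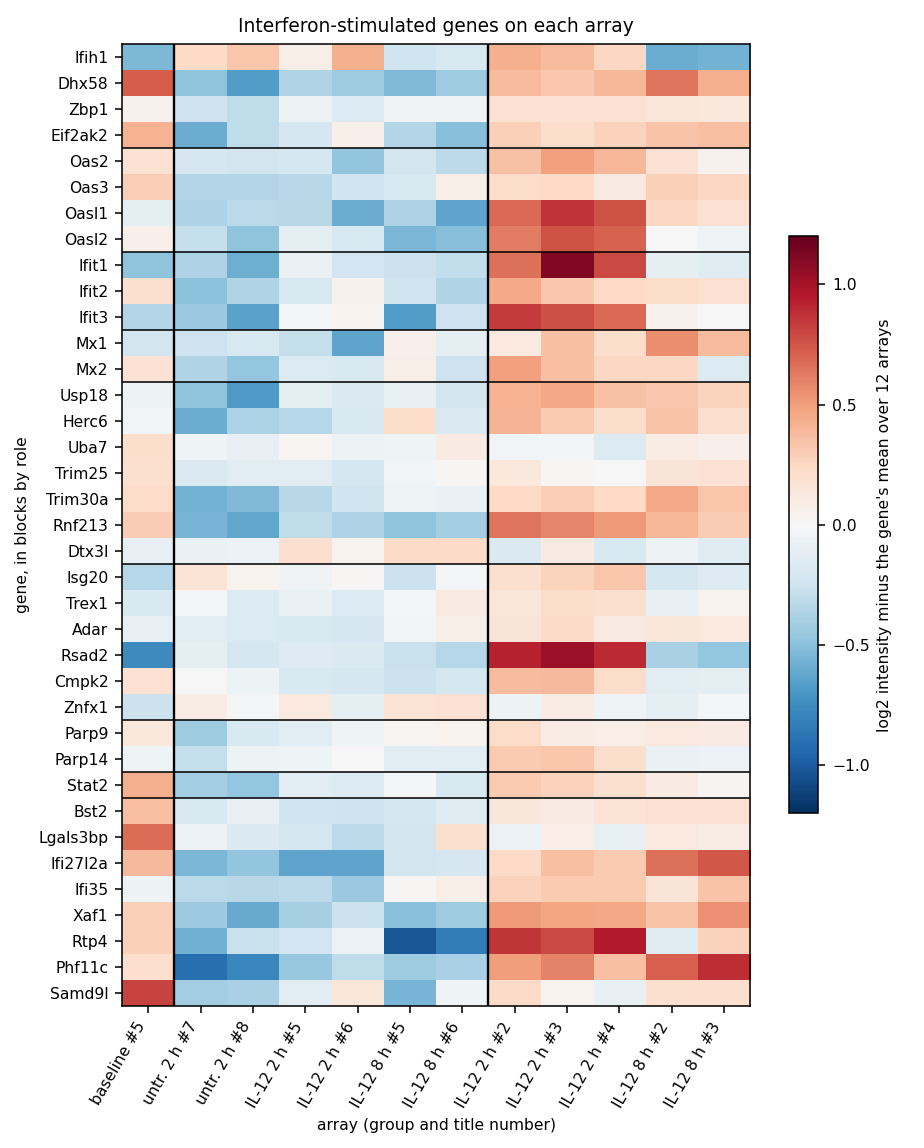
Log2 intensity of each of the 37 genes (rows, in blocks by role) on each of the 12 arrays (columns, by group and title number), less the gene's mean over the arrays; red is above and blue below that mean. Vertical lines part the baseline array, the other arrays numbered 5 to 8 and the arrays numbered 2 to 4, where most rows are red.

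The number run went with the largest count of calls in these genes, 28 against 19 for untreated against baseline, whose median change was of like size. Arrays numbered 2 to 4 were higher than arrays numbered 5 to 8 in 27 genes and lower in 1, with a median log2 difference of 0.43 over the 37 genes against 0.035 over all genes (limma, Benjamini-Hochberg adjusted p under 0.05). Of all genes 24.3% were called in this comparison, 11.8% higher and 12.5% lower. Among IL-12 2 h arrays 34 of the 37 differences were positive, among IL-12 8 h arrays 31, and 32 had the same sign at both times. The term is estimated from the IL-12 arrays alone, since both untreated arrays lie in 1 run.

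The 27 came from most of the families, though neither Parp9 nor Parp14, the 2 ADP-ribosyltransferase genes, passed. All 4 measured genes of the OAS family were higher, which covers synthases of the 2-5A messenger that activates RNase L and their relatives Oasl1 and Oasl2. The log2 differences were 1.00 ± 0.10 (SE) for Oasl1, 0.69 ± 0.07 for Oasl2 and 0.59 ± 0.08 for Oas2 (limma adjusted p = 1.40e-05, 2.39e-05 and 0.000175). All 3 genes of the IFIT family, whose proteins bind viral RNA, were higher as well, among them Ifit3 by 0.63 ± 0.09 and Ifit1 by 0.62 ± 0.14 (adjusted p = 0.000161 and 0.0061). Both Mx genes were higher, Mx1 by 0.60 ± 0.08 (adjusted p = 0.000182). Among the RNA and DNA sensors, Dhx58, the RIG-I-like regulator LGP2, was higher by 0.88 ± 0.07 (adjusted p = 2.91e-06), while Ifih1, the sensor MDA5, had -0.11 ± 0.10 (adjusted p = 0.42).

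Oasl1 shows the split array by array. On arrays numbered 5 to 8 it was 7.88 and 7.93 untreated, 7.91 and 7.65 at 2 h and 7.88 and 7.62 at 8 h of IL-12, on the log2 scale. On arrays numbered 2 to 4 it was 8.93, 9.12 and 9.01 at 2 h and 8.50 and 8.44 at 8 h, and on the baseline array 8.15. The IL-12 arrays of the number runs did not overlap at either time, while untreated and IL-12 arrays of the run 5 to 8 did. Oasl1 was picked as called, and the share of all genes without overlap was not counted.

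In the ISG15 and ubiquitin pathway 5 of 7 genes were higher. Rnf213, a large ubiquitin ligase, differed by 0.86 ± 0.06 (adjusted p = 5.72e-07), and its other probe set gave 0.865. Usp18, which removes ISG15 and dampens the interferon receptor, differed by 0.51 ± 0.06, and Trim30a, a TRIM-family gene, by 0.50 ± 0.05 (adjusted p = 5.54e-05 and 2.48e-05). Dtx3l, a ubiquitin ligase partner of PARP9, was the 1 gene lower (-0.26 ± 0.07, adjusted p = 0.0146), and is named after its value was seen. Further differences were those of Ifi27l2a (0.93 ± 0.05), Phf11c (1.02 ± 0.08), Rtp4 (1.01 ± 0.09) and Xaf1 (0.86 ± 0.06), with adjusted p between 2.49e-07 and 5.72e-06. Bst2, the tetherin that holds budding virus at the cell surface, differed by 0.37 ± 0.05 and Stat2, the signalling subunit of the pathway, by 0.30 ± 0.06 (adjusted p = 0.000181 and 0.0044).

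Markers of other cell types moved with the number run, and their part in the difference was not tested. Of 16 listed macrophage and monocyte markers 14 were measured, 6 lower and 1 higher in arrays numbered 2 to 4. Their summed linear intensity was 2152 to 2443 in untreated arrays, 1768 to 2031 in IL-12 2 h arrays 5 and 6, 1701 to 1915 in IL-12 8 h arrays 5 and 6, 1259 to 1304 and 1206 to 1231 in the IL-12 2 h and 8 h arrays numbered 2 to 4, and 1407 on the baseline array. The log2 difference of the lysozyme gene Lyz2 was -1.96 ± 0.17 in arrays numbered 2 to 4, and 12 of the 14 markers, Csf1r and Adgre1 among them, were below the array median on all arrays. Of 7 measured B cell markers 5 were higher, with sums of 1103 to 1261 in the arrays numbered 5 to 8 other than the baseline, 1379 to 1646 in arrays numbered 2 to 4 and 1601 on the baseline array. Platelet genes were higher too (Pf4 by 1.07 ± 0.13), while 4 of 5 plasmacytoid dendritic cell markers and 4 of 5 NK markers were lower. Siglech, the plasmacytoid marker that was not lower, had 0.109 and was below the array median on all arrays. So were 4 NK markers, all but Eomes. Of 7 neutrophil markers 3 were higher, and of 2 CD8 markers 1 was lower. Of 6 dendritic markers 1 was higher and 1 lower, and of 10 T cell markers 3 were higher and 2 lower. In bulk RNA, fewer cells of a type and less RNA per cell cannot be told apart. With the mean of the macrophage markers as a covariate the median difference of the 37 genes was 0.52, with 0 genes called, and 2 were called among all genes.

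**Figure D2:**
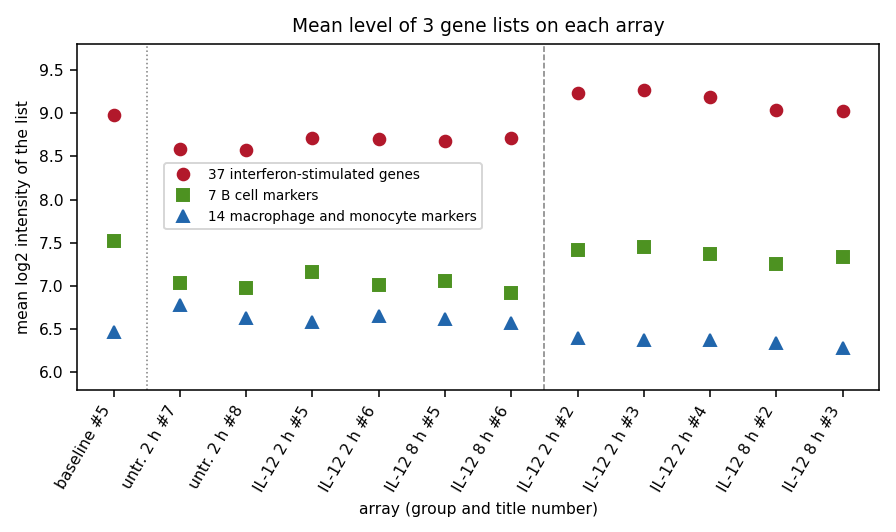
Mean log2 intensity on each array of the 37 interferon-stimulated genes (circles), 7 B cell markers (squares) and 14 macrophage and monocyte markers (triangles); the dashed line separates arrays numbered 5 to 8 from arrays numbered 2 to 4, and the dotted line the baseline array. The interferon-stimulated genes reach 9.26 on the right and stay at 8.71 or below on the left, apart from the baseline array at 8.97.

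IL-12 for 2 h against untreated cells of the same time asks what the cytokine does to these genes early. None of the 37 passed in limma after adjustment, and 0.0709% of all genes did. At an unadjusted p under 0.05, 16 were higher and 0 lower, beside 2.73% and 2.19% of all genes. The log2 changes were positive in 29 of 37, with a median of 0.20 against -0.003 over all genes. Among arrays numbered 5 to 8 alone, where both groups have n = 2, 22 were positive and the median was 0.16. A possible pairing of these treated and untreated arrays was not modelled. Without the run term the median was 0.44, since 3 of 5 IL-12 2 h arrays and no untreated array are numbered 2 to 4.

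Usp18 came nearest to the threshold. Its log2 intensity was 8.997 and 8.80 in untreated arrays 7 and 8, 9.37 and 9.31 in IL-12 2 h arrays 5 and 6, and 9.90, 9.95 and 9.83 in IL-12 2 h arrays 2 to 4. All 5 treated arrays lay above both untreated ones. Of these, 3 are numbered 2 to 4, a run without untreated arrays in which Usp18, Ifit3 and Stat2 were higher. Only arrays 5 and 6 thus compare treated with untreated cells within a run. The fitted change of Usp18 was 0.47 ± 0.08 (limma adjusted p = 0.078). For Ifit3 the values were 6.96 and 6.76 untreated, 7.38 and 7.45 in arrays 5 and 6, and 8.25, 8.18 and 8.09 in arrays 2 to 4 (0.63 ± 0.12, limma adjusted p = 0.14). Stat2 had 9.24 and 9.19 untreated, 9.53 and 9.50 in arrays 5 and 6, and 9.97, 9.94 and 9.85 in arrays 2 to 4 (0.36 ± 0.09, adjusted p = 0.42). Within arrays numbered 5 to 8 these differences were 0.44 for Usp18, 0.55 for Ifit3 and 0.30 for Stat2.

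By family the values were as follows, and none passed. The 3 IFIT genes had changes from 0.33 to 0.63, Ifit1 0.56 ± 0.20 (adjusted p = 0.86). The 4 OAS genes had changes from -0.03 to 0.33, with Oas2 at the lower end, and the 4 sensors from 0.09 to 0.26, with Ifih1 at the lower end. Among 7 genes of the ISG15 and ubiquitin pathway 6 changes were positive, Trim30a at 0.28 ± 0.08 (adjusted p = 0.53). Mx1 (-0.18 ± 0.12) and Bst2 (-0.10 ± 0.07) had negative values, both with an adjusted p of 0.999.

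IL-12 for 8 h against untreated 2 h differs in both cytokine and time. In this comparison 4 of the 37 genes were higher and 2 lower in limma, beside 1.04% and 2.13% of all genes (3.16% in either direction). The median change was 0.13 against -0.01 over all genes, and 26 of 37 were positive. The 6 genes come from different roles: higher were Trim30a and Usp18 of the ubiquitin and ISG15 pathway, Phf11c, a PHD-finger gene, and Ifi27l2a, and lower were the RNA sensor Ifih1 and Rtp4, which encodes a receptor-transporting protein.

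Trim30a was 10.97 and 10.999 in untreated arrays, 11.48 and 11.45 in IL-12 8 h arrays 5 and 6, and 11.99 and 11.86 in IL-12 8 h arrays 2 and 3. All 4 arrays of 8 h were above both untreated ones, and the change was 0.46 ± 0.08, 1.38-fold (adjusted p = 0.0035). In the same order Phf11c was 7.56 and 7.68, then 8.03 and 8.07, then 9.18 and 9.35 (0.53 ± 0.11, adjusted p = 0.0174). Usp18 was 9.38 and 9.26 at 8 h in arrays 5 and 6 and 9.81 and 9.74 in arrays 2 and 3, above the untreated values given before (0.39 ± 0.08, adjusted p = 0.0192). Ifi27l2a was 9.84 and 9.91 untreated, 10.16 and 10.19 in arrays 5 and 6, and 11.05 and 11.14 in arrays 2 and 3 (0.30 ± 0.07, adjusted p = 0.0422), a call that held in 7 of 23 alternatives. In none of these 4 genes did the groups overlap, but the genes were picked as called. The share of all genes without overlap was not counted. No untreated array is numbered 2 to 4, where all 4 genes were higher by number run. Only arrays 5 and 6 therefore compare 8 h with untreated cells within a run. They lay above both untreated arrays in all 4 genes.

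Ifih1 was 8.90 and 8.99 untreated, 8.42 and 8.47 in IL-12 8 h arrays 5 and 6, and 8.07 and 8.09 in arrays 2 and 3. It lay lower in all 4 treated arrays, and the change was -0.63 ± 0.13 (adjusted p = 0.0175). Rtp4 was 6.89 and 7.19 untreated, 6.43 and 6.62 in arrays 5 and 6, but 7.32 and 7.74 in arrays 2 and 3. The groups overlapped in these values. The model, with its run term, gave -0.52 ± 0.13 (adjusted p = 0.0378), and among arrays numbered 5 to 8 the difference was -0.51. Within arrays 5 to 8 the other differences were 0.48 for Trim30a, 0.44 for Phf11c, 0.42 for Usp18, 0.30 for Ifi27l2a and -0.50 for Ifih1.

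The counts rest on few arrays. Without untreated array 8 they were 1 higher and 0 lower, without untreated array 7 or without IL-12 8 h array 5 they were 2 higher and 1 lower, and leaving out IL-12 2 h array 2, 3, 4 or 5 left 1 lower. Arrays numbered 5 to 8 alone gave 1 higher and 0 lower. Of genes given for the 2 h comparison, Stat2 had 0.27 ± 0.09 (adjusted p = 0.14), Ifit3 0.01 ± 0.12, Ifit1 -0.03 ± 0.20, Oas2 -0.16 ± 0.11, Mx1 0.14 ± 0.12 and Bst2 -0.04 ± 0.07. Both comparisons with untreated cells share the 2 untreated arrays.

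**Figure D3:**
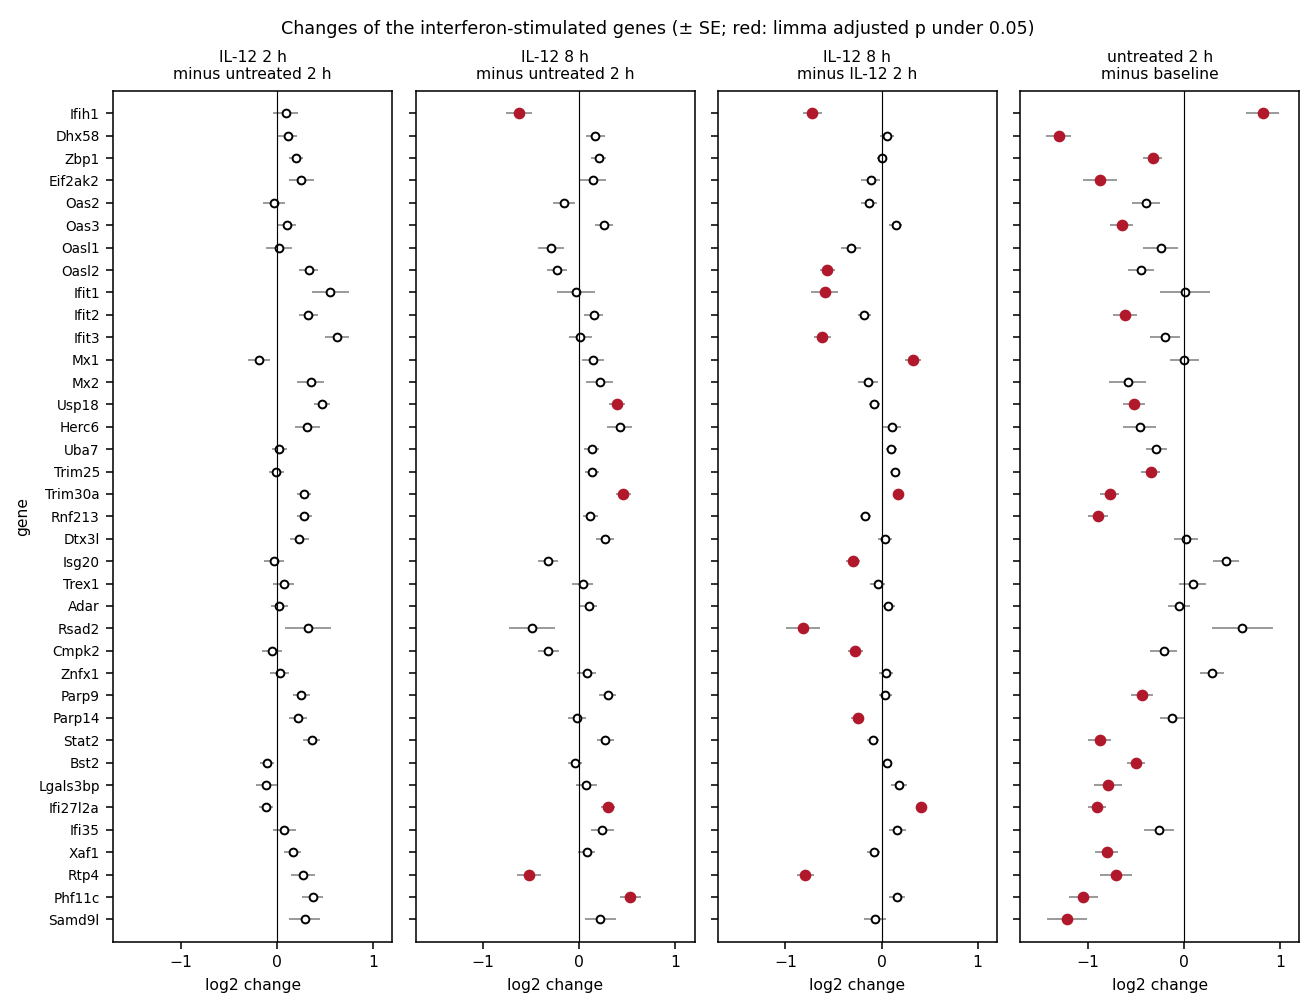
Log2 change with SE of each of the 37 genes (rows, in the order of their roles) in the 4 comparisons of groups; filled red points passed limma's adjusted p under 0.05 and open points did not. No point is filled for IL-12 2 h minus untreated 2 h, 6 are filled for 8 h minus untreated, 12 for 8 h minus 2 h and 19 for untreated minus baseline.

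The course from 2 to 8 h of IL-12 has the most arrays and both number runs on each side. Between these times 9 of the 37 genes fell and 3 rose, while 25 did not pass, beside 6.36% of all genes lower and 6.27% higher (12.6% in all). The median change was -0.07, against -0.01 over all genes. The falls were in RNA-binding IFIT proteins (Ifit1, Ifit3), the sensor Ifih1, the OAS relative Oasl2, Rsad2 (viperin, which makes a chain-terminating nucleotide), the mitochondrial nucleotide kinase gene Cmpk2, the exonuclease gene Isg20, the ADP-ribosyltransferase gene Parp14 and Rtp4. The rises were in Ifi27l2a, Mx1 and Trim30a. With the title number as a fixed block in place of the run term, 4 fell (Rtp4, Oasl2, Ifih1 and Ifit3) and 1 rose (Ifi27l2a).

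Rtp4 was 7.24 and 7.39 at 2 h against 6.43 and 6.62 at 8 h in arrays 5 and 6. In arrays 2 to 4 it was 8.32, 8.26 and 8.41 at 2 h against 7.32 and 7.74 at 8 h. Within each run the times did not overlap, the differences were -0.79 and -0.80, and the fitted change was -0.79 ± 0.09, 1.73-fold lower (limma adjusted p = 6.57e-05).

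Ifih1 was 8.73 and 9.09 at 2 h against 8.42 and 8.47 at 8 h in arrays 5 and 6, and 9.08, 9.04 and 8.91 against 8.07 and 8.09 in arrays 2 to 4 (-0.72 ± 0.10, adjusted p = 0.000226). Oasl2 was 8.05 and 7.97 against 7.61 and 7.64 in arrays 5 and 6, and 8.77, 8.92 and 8.86 against 8.16 and 8.11 in arrays 2 to 4 (-0.56 ± 0.07, adjusted p = 0.000226). Ifit3, whose 2 h values were given before, was 6.74 and 7.15 at 8 h in arrays 5 and 6 and 7.46 and 7.41 in arrays 2 and 3 (-0.61 ± 0.09, adjusted p = 0.000408). In these 3 genes the times did not overlap within either run. Like Rtp4, these genes were picked as called, and the share of all genes without overlap was not counted. The falls within arrays 5 and 6 were smaller than those within arrays 2 to 4, -0.47 and -0.93 for Ifih1, -0.38 and -0.71 for Oasl2 and -0.47 and -0.74 for Ifit3, though the difference between the runs did not pass for them.

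For Rsad2 and Ifit1 it did. Rsad2 was 8.39, 8.50 and 8.36 at 2 h and 7.07 and 6.99 at 8 h in arrays 2 to 4, a difference of -1.38. In arrays 5 and 6 it was 7.30 and 7.29 at 2 h and 7.19 and 7.12 at 8 h, a difference of -0.14, beside 7.35 and 7.26 untreated and 6.70 at baseline. All arrays other than the 3 IL-12 2 h arrays numbered 2 to 4 were at 7.35 or lower, and the runs differed in the change by -1.24 ± 0.11 (limma adjusted p = 8.26e-05). Ifit1 followed the same form, with 9.29, 9.74 and 9.42 at 2 h and 8.52 and 8.49 at 8 h in arrays 2 to 4, against 8.55 and 8.40 at 2 h and 8.38 and 8.33 at 8 h in arrays 5 and 6. Its changes were -0.98 and -0.12, and the difference between the runs was -0.86 ± 0.17 (adjusted p = 0.0214).

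These were the 2 genes of 37 called for a difference between the runs, both lower, beside 0.952% of all genes lower and 0.84% higher (1.79% in all). Leaving out any 1 of the 4 IL-12 8 h arrays, or IL-12 2 h array 6, left Rsad2 alone called. The changes in the model over both runs were -0.82 ± 0.17 for Rsad2 and -0.59 ± 0.14 for Ifit1 (adjusted p = 0.0066 and 0.0137), and neither passed in arrays numbered 5 to 8 alone. Of all 37 genes, 22 had the same sign of change in both runs, 14 of them negative in both. The median change was -0.06 in arrays 2 to 4, where 25 were negative, and 0.04 in arrays 5 and 6, where 18 were.

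**Figure D4:**
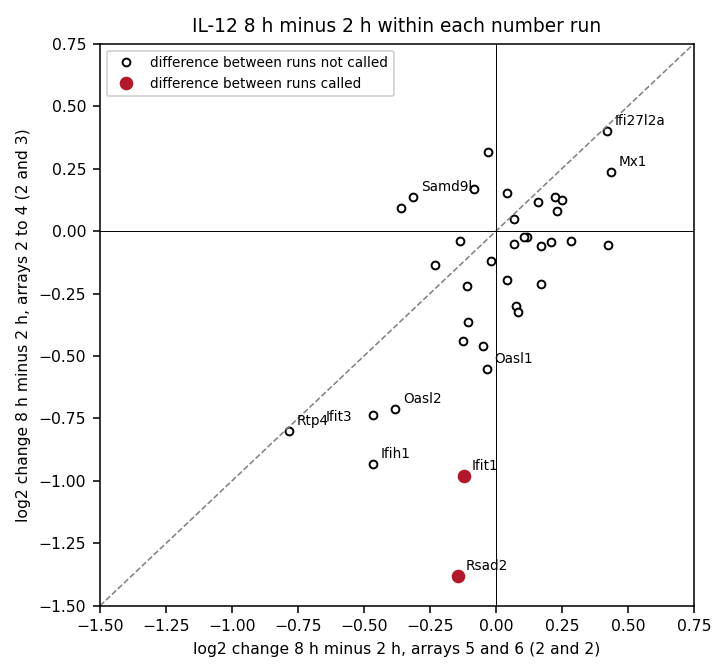
Log2 change from 2 to 8 h of IL-12 for each of the 37 genes among arrays 5 and 6 (horizontal) and among arrays 2 to 4 (vertical); the dashed line marks equal change and red points are genes whose change differed between the runs in limma. Rsad2 and Ifit1 lie far below the line at -1.38 and -0.98 on the vertical axis, while Rtp4 lies on it.

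Smaller falls were those of Isg20 (-0.30 ± 0.08, adjusted p = 0.0187), Cmpk2 (-0.27 ± 0.08, adjusted p = 0.0344) and Parp14 (-0.25 ± 0.07, adjusted p = 0.0286). Their values within arrays 5 and 6 were -0.12, -0.05 and -0.11, and within arrays 2 to 4 -0.44, -0.46 and -0.36. Ifi27l2a rose by 0.41 ± 0.05 (adjusted p = 0.000182), from 9.76 and 9.75 to 10.16 and 10.19 in arrays 5 and 6, and from 10.63, 10.75 and 10.70 to 11.05 and 11.14 in arrays 2 to 4. The times did not overlap within either run, though the gene was picked as called, and the differences were 0.42 and 0.40. Mx1 rose by 0.33 ± 0.08 (adjusted p = 0.0191) and Trim30a by 0.18 ± 0.05 (adjusted p = 0.0492). The call of Trim30a held in 7 of 24 alternatives and was lost without any 1 of 10 arrays; that of Mx1 held in 16. Mx1 was 6.12 and 5.78 at 2 h against 6.47 and 6.30 at 8 h in arrays 5 and 6, and 6.52, 6.77 and 6.62 against 6.96 and 6.79 in arrays 2 to 4.

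By family the counts from 2 to 8 h were small. Of 4 sensors 1 fell and 0 rose: Ifih1 fell, while Dhx58, Zbp1 and Eif2ak2 did not pass, in a family range from -0.72 to 0.06. Of 3 IFIT genes 2 fell, of 4 OAS genes 1 fell, of 6 nucleic acid and nucleotide enzymes 3 fell, and of 7 genes of the ISG15 and ubiquitin pathway 1 rose. Usp18 (-0.07 ± 0.06), Stat2 (-0.09 ± 0.06), Bst2 (0.06 ± 0.05) and Oas2 (-0.13 ± 0.08) did not pass (adjusted p from 0.38 to 0.58). Without IL-12 8 h array 2 or array 3, 5 genes fell; without IL-12 8 h array 2 or 5 or IL-12 2 h array 2, 1 rose. Arrays numbered 5 to 8 alone gave 1 fall and 0 rises, and arrays 2 to 4 alone gave 11 falls and 2 rises. Among cell type markers, the plasmacytoid dendritic cell genes Tcf4 and Ccr9 (2 of 5 measured) were lower at 8 h. The NK gene Klrb1c (1 of 5) and the B cell gene Ebf1 (1 of 7) were lower too. The NK gene Ncr1 (0.38 ± 0.06) and 2 of 10 T cell genes, Cd3d (0.30 ± 0.06) and Cd28 (0.24 ± 0.06), were higher. None of the 14 macrophage and monocyte, 6 dendritic, 7 neutrophil, 2 CD8 and 3 erythroid and platelet markers passed. The share of all genes called was 12.6%. The part of these cells in the course was not tested.

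Untreated cells at 2 h against the 1 baseline array gave 18 genes lower and 1 higher, with the baseline array taken as part of the run 5 to 8 by its number. Of all genes 10.2% were called, 3.96% lower and 6.28% higher. The median was -0.43 against -0.035 over all genes. With the baseline array placed with arrays 2 to 4, a choice made after the data were seen, 0 were lower and 0 higher and the median was -0.01; the whole table then had 204 calls, 1.03% of genes. None of the named genes that passed against baseline still passed with the array moved in this way. A difference of these genes from baseline and the placement of that array cannot be told apart. The spread of the single baseline array is taken from the other groups. Markers of other cell types moved in this comparison too, by the number of the baseline array: untreated cells were higher in 2 of 14 macrophage and monocyte markers (Lyz2 by 2.13 ± 0.32), 2 of 5 NK markers, and 1 each of the dendritic, plasmacytoid and CD8 markers. They were lower in 3 of 7 B cell markers (Ms4a1 by -1.44 ± 0.12) and 2 of 3 erythroid and platelet genes (Pf4 by -1.96 ± 0.23). The part of these cells in the difference was not tested.

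Dhx58 was 8.93 on the baseline array, 7.72 and 7.53 on the untreated arrays and 8.53 to 8.85 on arrays numbered 2 to 4 (untreated minus baseline -1.30 ± 0.13, limma adjusted p = 3.36e-05). Samd9l, a gene of the SAMD9 family of antiviral restriction factors, was 8.32 on the baseline array, 7.09 and 7.12 untreated and at most 7.74 on any IL-12 array (-1.21 ± 0.21, adjusted p = 0.0019). Lgals3bp, which encodes a secreted glycoprotein, was 11.71 at baseline, 10.97 and 10.87 untreated and at most 11.24 on any IL-12 array (-0.79 ± 0.15, adjusted p = 0.0032). In Samd9l, Lgals3bp, Dhx58 and Stat2 (10.10 at baseline), among others, the baseline array was the highest of all 12. Eif2ak2, the RNA-activated kinase PKR, was 9.30 at baseline and 8.27 and 8.57 untreated (-0.87 ± 0.18, adjusted p = 0.0055). With the array moved the values were -0.43 for Dhx58, -0.96 for Samd9l, -0.60 for Lgals3bp and -0.34 for Eif2ak2 (adjusted p from 0.0831 to 0.645).

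The other named genes lower after 2 h without IL-12 were Phf11c (-1.04 ± 0.15), Ifi27l2a (-0.90 ± 0.10), Rnf213 (-0.90 ± 0.10), Stat2 (-0.88 ± 0.12), Xaf1 (-0.80 ± 0.12) and Trim30a (-0.77 ± 0.10). Oas3 (-0.65 ± 0.12), Usp18 (-0.52 ± 0.11) and Bst2 (-0.50 ± 0.09) followed, and adjusted p ranged from 5.30e-05 to 0.008 in these 9 genes. With the array moved Stat2 had -0.58 (adjusted p = 0.0616), Trim30a -0.27, Oas3 -0.24 and Bst2 -0.13, while Rnf213, Phf11c, Usp18, Ifi27l2a and Xaf1 lay between -0.034 and 0.052. Ifih1 went the other way. It was 8.12 on the baseline array and 8.90 and 8.99 untreated (0.82 ± 0.17, 1.76-fold, adjusted p = 0.0076; 0.71 with the array moved, adjusted p = 0.136), and its baseline value lay with the 8 h arrays numbered 2 and 3 (8.07 and 8.09). With the title number as a random block, 19 genes were lower and 2 higher. Ifit1 (0.01 ± 0.26), Mx1 (0.00 ± 0.15), Ifit3 (-0.20 ± 0.16) and Oas2 (-0.40 ± 0.15) did not pass (adjusted p from 0.12 to 0.99). Against each run, the baseline array was above all 6 other arrays numbered 5 to 8 in 24 of 37 genes and above all 5 arrays numbered 2 to 4 in 9. It was below all of them in 6 and 17 genes.

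The genes that make and carry the interferon signal were measured beside these targets. Of 6 listed ligand genes 5 had a value, and all 5 were below the array median on all arrays. No ligand gene was called in limma in any comparison. Ifnb1, the interferon-beta gene, was 5.63 to 5.89 untreated, 5.57 to 5.69 in IL-12 2 h arrays 5 and 6 and 5.59 to 6.08 in IL-12 2 h arrays 2 to 4 (IL-12 2 h minus untreated -0.08 ± 0.13, adjusted p = 0.999).

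All 4 receptor and kinase genes were above the array median on all arrays. Ifnar1, a receptor chain, was 10.91 and 10.98 untreated, 10.82 on both IL-12 2 h arrays 5 and 6, 10.64 to 10.67 on the IL-12 2 h arrays 2 to 4, and 10.52 to 10.66 on the 4 IL-12 8 h arrays. It was lower at 8 h than in untreated cells by -0.32 ± 0.07 (adjusted p = 0.0275) and higher untreated than at baseline by 0.46 ± 0.10 (adjusted p = 0.0076). The call of Ifnar1 at 8 h was lost in 10 of 23 alternatives, among them arrays numbered 5 to 8 alone and leaving out either untreated array, and with the baseline array moved Ifnar1 had 0.35 (adjusted p = 0.217). Its value at 2 h of IL-12 was -0.16 ± 0.07 against untreated (adjusted p = 0.999). Ifnar2, the other chain, and the kinases Jak1 and Tyk2 passed in no comparison; their changes at 8 h against untreated were 0.06 ± 0.07, 0.07 ± 0.08 and 0.26 ± 0.11.

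Of the listed transcription factor genes 3 had a value. Irf7, which amplifies interferon production and is itself interferon-stimulated, was 8.02 and 7.90 untreated, 8.48 and 8.31 in IL-12 2 h arrays 5 and 6 and 7.56 and 8.03 in IL-12 8 h arrays 5 and 6. On arrays numbered 2 to 4 it was 8.70 to 8.97, and 8.86 at baseline. It was higher in arrays 2 to 4 by 0.70 ± 0.12 (adjusted p = 0.000873) and lower untreated than at baseline by -0.90 ± 0.22 (adjusted p = 0.0164). With the baseline array moved Irf7 had -0.21 (adjusted p = 0.886), and without untreated array 8 it did not pass either. Irf9, the DNA-binding subunit of the complex, had changes between -0.07 and 0.09 in the 5 comparisons of groups and runs, and none passed.

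Among 8 measured sensor and adaptor genes, Myd88, the adaptor of Toll-like and IL-1 family receptors, rose at 2 h against untreated by 0.60 ± 0.09 (adjusted p = 0.0146) and was also higher at 8 h (0.38 ± 0.09, adjusted p = 0.0259). Neither Myd88 call held without untreated array 7, without untreated array 8 or in arrays numbered 5 to 8 alone. Tlr7, an endosomal RNA receptor, rose at 8 h against untreated by 0.74 ± 0.10 (adjusted p = 0.000631). From 2 to 8 h Tlr7, Ticam1 and Mavs rose and Myd88 fell, by 0.34 ± 0.07, 0.28 ± 0.06, 0.23 ± 0.06 and -0.23 ± 0.06. With the title number as a fixed block none of these 4 passed (adjusted p from 0.0587 to 0.11). Between the runs Myd88, Tbk1, Ddx58 and Tlr7 were higher and Tlr9 lower in arrays 2 to 4.

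Of 4 inhibitor genes, Socs1, a suppressor of JAK kinases, and the phosphatase gene Ptpn2 fell from 2 to 8 h, by 0.38 ± 0.10 and 0.24 ± 0.06 (adjusted p = 0.0227 and 0.0261). With the title number as a fixed block neither passed (limma adjusted p = 0.132 and 0.105). Within arrays 2 to 4 and arrays 5 and 6 Socs1 changed by -0.66 and -0.05, and Ptpn2 by -0.20 and -0.28. For Socs1 the difference between the runs passed (-0.61, limma adjusted p = 0.0222). Socs3 and Ptpn2 were higher in arrays 2 to 4, by 0.51 ± 0.09 and 0.35 ± 0.06. Ifng, the gene of interferon-gamma, was higher than in untreated 2 h cells by 1.94 ± 0.20 at 2 h of IL-12 and 1.39 ± 0.20 at 8 h (limma adjusted p = 0.0025 and 0.0013). The 8 h value differs from untreated in time as well as cytokine. In arrays 5 and 6 Ifng was 11.25 and 11.20 at 2 h and 11.28 and 11.12 at 8 h, while in arrays 2 to 4 it was 11.90, 12.04 and 11.998 at 2 h and 10.94 and 11.07 at 8 h. The change from 2 to 8 h was -0.98 in arrays 2 to 4 and -0.03 in arrays 5 and 6 (difference between the runs -0.95 ± 0.14, adjusted p = 0.0040). Its receptor gene Ifngr2 was lower at 8 h than untreated by -0.62 ± 0.12 (adjusted p = 0.0113), a call lost without either untreated array.

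By the presence of the core in the printed window, the 7 genes with a match had a median change of 0.33 at 2 h against untreated and the 20 without had 0.09. At 8 h against untreated the order turned, with 0.01 and 0.11. From 2 to 8 h the medians were -0.09 and -0.05, between the runs 0.50 and 0.29, and untreated against baseline -0.50 and -0.32. These are descriptions of 27 genes with a promoter entry.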

How the data were processed

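The deposited values are linear intensity of 24922 probe sets on 12 Affymetrix Mouse Gene 1.0 ST arrays, which the authors made with RMA in Affymetrix Power Tools per the submitters' processing notes. The sources used here give neither the probe annotation nor the genome build. RMA equalises the arrays, so a shift of all genes cannot be seen; array medians lay between 160.6 and 167.3. Log2 of the deposited intensity was taken, with no further normalization and no filter on dim genes. Of the probe sets, 21425 carry 1 symbol in GEO's platform annotation, 1399 several and 2098 none; those of 1 symbol were used, and the one with the highest mean stood for a gene.

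All 12 arrays entered 1 model with 4 group means and the number run (limma 3.58.1, lmFit and eBayes, under R 4.3.3; 7 residual and 6.84 prior degrees of freedom). Tests were two-sided, and a call needed an adjusted p (Benjamini-Hochberg, 19752 genes) under 0.05. The difference between runs was an interaction in a model of 6 means. The model was also run on simulated data, with normal noise and the fitted run term added. Such data hold no difference between the runs in the course and keep the baseline array in its numbered run. They therefore say nothing on either point, and the recovery is not reported here. Promoters were read in Python 3.11.15, and plots were made in matplotlib 3.10.9.

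Same-numbered IL-12 2 h and 8 h arrays deviated together from their group means (r from 0.30 to 0.519 for numbers 2, 3, 5 and 6). Arrays of different number in the same run did so too (r from 0.407 to 0.498). Less the run means as well, r of same-numbered arrays was -0.264 to 0.025. These values cover IL-12 2 h against 8 h only, and show no pairing by title number beyond the run there. In the run 5 to 8 each of these groups has 2 arrays, so r is 1 value of either sign. Across genes, IL-12 2 h array 5 correlated most with untreated array 7 (r = 0.998), and array 6 with untreated array 8 (0.9977). The crossed pairs had 0.9965 and 0.9953, and the replicates 0.9966 and 0.9965. A pairing of these arrays was not modelled. The block by title number is given as an alternative only.

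The members and lists were chosen with earlier results of these data known. Named were the called members, at most 12 by smallest p in each comparison, and Isg15, Ifit1, Ifit3, Usp18, Mx1, Oas2, Stat2, Ifih1, Trim30a and Bst2 whatever their result; of each pathway list, at most 4 called genes, and Ifnb1, Ifnar1, Ifnar2, Jak1, Tyk2, Irf9, Irf7, Ifng and Socs1; 1 further gene of that rule is not reported here. Alternatives changed the run term, arrays, weights, normalization, filter, probe set rule and covariates.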

Additional observations from a re-analysis of the deposited data

Results flagged for a closer look

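The change from 2 to 8 h of IL-12 differed between arrays numbered 2 to 4 and arrays 5 and 6 in 10 of the genes reported here. It was tested as an interaction in limma, and a negative value means a lower change in arrays 2 to 4. Apart from Ifit1, Socs1 and Ifng, these genes were named because they passed in a comparison. By list, 2 of the 37 genes and 1 of 4 inhibitor genes had a lower change. Of 4 type II interferon genes 1 was higher and 2 lower, and of 28 further genes 2 went each way. Of all genes 1.79% were called. Among the interferon-stimulated genes the differences were -1.24 for Rsad2 and -0.86 for Ifit1. Of signalling genes they were -0.61 for Socs1 and -0.95 for Ifng, and for the interferon-gamma receptor chains 0.60 for Ifngr1 and -0.52 for Ifngr2. Of the further interferon-stimulated genes they were -1.05 for Ube2l6, the ISG15-conjugating enzyme gene, -1.07 for the chemokine gene Cxcl10, 0.78 for Epsti1 and 0.54 for Sp100. Over 15 alternatives Rsad2, Ifng and Cxcl10 passed in all, Ifit1 in 10, Socs1 in 9 and Ifngr2 in 7.

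In Jak2, a kinase of the interferon-gamma receptor, IL-12 2 h array 6 stood above the other 4 arrays of its group, at 11.95 on the log2 scale against 11.72 for the nearest. It was the 1 such value among 144 groups examined, a test that chance passes in about 5% of uniform groups. The groups examined each pool both number runs, so that rate need not hold for them.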

How the results depend on the processing

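Counts are given as higher, then lower, genes of 37. IL-12 2 h minus untreated 2 h gave 0 and 0 in the model reported and in every alternative run, except for 1 higher without IL-12 8 h array 6. IL-12 8 h minus untreated 2 h (4 and 2) gave 0 and 1 without the run term, 1 and 0 in arrays numbered 5 to 8 alone, 0 and 0 with the baseline pooled with untreated, and 1 and 1 with the macrophage marker covariate; array weights, quantile normalization and median centring left 1 lower, and leaving out single arrays gave 1 to 3 and 0 to 3. Pooling turned Ifi27l2a to -0.006 in this comparison.

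IL-12 8 h minus IL-12 2 h (3 and 9) gave 0 and 1 without the run term, 0 and 1 in arrays numbered 5 to 8 alone, 1 and 4 with the macrophage covariate, and 1 to 3 and 5 to 10 without single arrays. With the title number as a replicate block, a fixed block gave 1 and 4, and a random block (correlation -0.136) 2 and 9. Untreated 2 h minus baseline (1 and 18) gave 0 and 0 once the run term was dropped, 0 and 5 with the macrophage covariate, and 2 higher with the random block, with array weights, in arrays numbered 5 to 8 alone or without dim genes. Without single arrays it gave 1 to 2 and 15 to 20. With the baseline placed with arrays 2 to 4, an alternative chosen after seeing the data, it gave 0 and 0, and Ifi27l2a (0.023) and Xaf1 (0.052) changed sign. The random block moved no other count by more than 1.5 times.

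The run difference (27 and 1) gave 0 and 0 with the macrophage covariate, which varies with the run itself, and 24 to 28 and 1 without single arrays. The difference between runs (0 and 2) kept 1 to 2 lower. The cause of these moves was not tested. Of medians over the 37 genes, pooling the baseline moved 0.20 to 0.027 at 2 h and 0.13 to -0.030 at 8 h against untreated. Only 2 untreated arrays and 1 baseline array limit both comparisons that use them, and Mx1 and Mx2, dim on all arrays, may understate changes.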

Other observations

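A further list of 32 interferon-stimulated genes outside the set had 28 measured. Between the number runs 11 differed upward and 2 downward in the run 2 to 4, beside 11.8% and 12.5% of all genes. Among them Ifi203 (0.66 ± 0.06) and Ifitm3 (0.79 ± 0.07), which encodes a membrane protein that blocks viral entry, were higher. Slfn1 (-0.56 ± 0.06) was lower. At 8 h of IL-12 against untreated cells 5 were higher and 1 lower, beside 1.04% and 2.13% of all genes. Higher were Apobec3 (0.49 ± 0.10), Ifitm3 (0.44 ± 0.09), Trim21 (0.35 ± 0.07), Pml (0.54 ± 0.12) and Slfn1 (0.35 ± 0.08). Slfn5 was lower (-0.60 ± 0.15), and limma adjusted p ranged from 0.0129 to 0.042 in these genes. Apobec3, Ifitm3, Trim21 and Pml each lost the call in 5 to 8 of 23 alternatives. From 2 to 8 h 5 fell and 4 rose, beside 6.36% and 6.27% of all genes. Cxcl10 fell most, by 1.56 ± 0.16 (limma adjusted p = 2.97e-05). Cxcl10 was 10.07, 10.01 and 10.10 at 2 h and 8.02 and 8.00 at 8 h in arrays numbered 2 to 4, and 9.25 and 9.45 at 2 h and 8.56 and 8.18 at 8 h in arrays 5 and 6. At 2 h against untreated none of the 28 passed, beside 0.0709% of all genes, and 21 of 28 changes were positive.

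Ube2l6 had the form of Rsad2. It was 10.53, 10.34 and 10.33 on the IL-12 2 h arrays numbered 2 to 4, and on the other 9 arrays it lay between 9.404 and 9.879.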
